A study of Mus musculus with 4 samples.

Results

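The receptor tyrosine kinase KIT was followed in single cells at both of its measured levels, as the transcript of the gene Kit and as the surface protein CD117. The members are the matrix row with the symbol Kit, 1 of 32285 gene features, and the antibody feature CD117, 1 of 15 antibody features (13 surface antibodies and 2 hashtags). Kit (ENSMUSG00000005672) lies on the plus strand of chromosome 5 at 75574916 to 75656722 of GRCm38 in GENCODE M21. It has 8 annotated transcripts, of which 2 are protein coding, the longest with 21 exons, and no other annotated gene overlaps it. The 3′ chemistry counts molecules near the transcript end, so splice forms are not told apart.

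The cells were mouse bone marrow cells that were positive for the CD45.2 allele and for Kit, taken 10 weeks after transplantation. Per the labels, 1 library each came from control marrow and from marrow with Mll3, with Mll4 or with both genes (Mll3/4) deleted, and all 4 share the CD45.2 donor allele, the transplantation and the Kit sort. The Cre line, the donor ages and the number of animals in a library are not given in the sources used here. RNA and barcoded antibodies were counted in the same cells as unique molecular identifiers (UMIs), and 7146, 5860, 5350 and 6917 cells were kept in that order.

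KIT binds stem cell factor, the product of Kitl, and signals through kinases, adaptors and phosphatases to survival and division. Haematopoietic stem cells, early progenitors and mast cells depend on it, and most lineages lose it as they mature. Early B-cell progenitors also carry it. Since the cells were sorted on Kit, CD117 had been used to choose them, and differences in its level are differences among sorted cells.

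With no replicates, every interval here is a 95% counting interval (exact Poisson for sums, Clopper-Pearson for shares and ratios) that covers counting error only, and any comparison sets single libraries, not conditions, against each other. Transcripts of the targeted genes were counted first. Kmt2c, which encodes Mll3, was at 47.9 CPM (UMI counts scaled to the usual common library total) in control, 27.2 in the Mll3 deleted, 59.2 in the Mll4 deleted and 34.8 in the Mll3/4 deleted library. Kmt2d, which encodes Mll4, was at 25.8, 21.6, 24.99 and 24.7 CPM, and its intervals in control and in both libraries labelled for Mll4 overlapped. A 3′ tag outside the deleted part does not check a deletion, and the libraries are therefore named Mll3-labelled, Mll4-labelled and Mll3/4-labelled. The Mll4-labelled library stood apart in depth, with a median of 5142 UMIs per cell against 9965 to 16963.5 in the others, and in Xist, at 0.519 CPM against 955 to 1839 CPM. The libraries shared 9 to 24 barcodes per pair, at most 0.29% of either library. Pearson correlations over all libraries are given with and without the Mll4-labelled library.

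The promoter of Kit is shown because the list of pathway genes below holds factors that act on this gene. It was searched over the 250 bases before the RefSeq start (GRCm38.p6, plus strand). The printed part, chr5:75574737-75574915, is the stretch that also precedes the first GENCODE start, and capitals mark motif matches.
Kit promoter: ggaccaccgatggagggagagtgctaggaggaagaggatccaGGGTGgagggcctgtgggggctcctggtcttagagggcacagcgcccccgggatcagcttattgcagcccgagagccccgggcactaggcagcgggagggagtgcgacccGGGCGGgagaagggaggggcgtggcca
The searched window was 70.8% G or C, against a median of 52% over 27025 promoters. It held 1 GC box (GGGCGG, either strand), the letters bound by the SP1 family, which begins 98 bases before the start, and 32.9% of promoters hold one. It held 1 CACCC match, read as GGGTG, which begins 208 bases before the start, and 51.3% of promoters hold one. No GATA (54.1% of promoters), CANNTG (66.0%) or TATAAA (12.97%) was found on either strand. A match is a description and not a site, and the lack of one says only that these letters are not in this window.

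The order of the 4 libraries in transcript depended on the scale. Kit was at 104.6 CPM in control, 108.3 in the Mll3-labelled, 167.1 in the Mll4-labelled and 189.8 in the Mll3/4-labelled library. The median cell carried 159, 203, 105 and 255 CD117 antibody UMIs in that order. On CPM the Mll4-labelled library thus had more Kit than control and fewer CD117 counts in its median cell, while the Mll3/4-labelled library was the highest in both. Kit UMIs per cell, a scale that follows depth and was added after the values were seen, were 2.25, 2.51, 1.02 and 2.13 in the same order. Per cell the Mll4-labelled library was the lowest in both levels, and the Mll3-labelled library was the highest in Kit.

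As log2 ratios to control, Kit was 0.05 (interval 0.02 to 0.08) in the Mll3-labelled, 0.68 (0.63 to 0.72) in the Mll4-labelled and 0.86 (0.83 to 0.89) in the Mll3/4-labelled library. CD117 was also divided by the surface antibody total, which follows antibody depth but also how much of the other surface antibodies the cells carry. Per 1000 surface antibody UMIs it was 147.6 in control, 193.4 in the Mll3-labelled, 106.7 in the Mll4-labelled and 427.2 in the Mll3/4-labelled library. Its log2 ratios were 0.39, −0.47 and 1.53. The raw mean count per cell gave 0.33, −0.07 and 0.84. Per hashtag UMI the Mll3/4-labelled ratio was 0.04, so the size of the protein difference in that library depends on the antibody chosen to scale it. Its median cell had 1516 hashtag UMIs against 926.5 in control, and 570 surface antibody UMIs against 1117.

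The share of cells with a Kit UMI follows depth. It was 70.3% in control, 71.3% in the Mll3-labelled, 45.2% in the Mll4-labelled and 73.3% in the Mll3/4-labelled library. After each cell was thinned to 2000 UMIs, it was 19.3%, 20.4%, 23.7% and 31.4%, with 96, 173, 247 and 84 cells too shallow to enter. The low unthinned share of the Mll4-labelled library thus became a share above that of control once depth was equal.

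CD117 counts had a low and a high population in the control, Mll3-labelled and Mll4-labelled libraries. A mixture of 2 Gaussians on the control library put the crossing at 124.3 UMIs. Above it lay 58.3% of control cells (interval 57.1% to 59.4%), 65.3% of Mll3-labelled, 44.5% of Mll4-labelled and 80.0% of Mll3/4-labelled cells. Many cells of a Kit sort were therefore low for the CD117 barcode. Kit was higher above the crossing than below it in all 4 libraries. It was 126 against 52.5 CPM in control, 125 against 47.5 in the Mll3-labelled, 243 against 69.6 in the Mll4-labelled and 206 against 111 in the Mll3/4-labelled library.

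**Figure D1:**
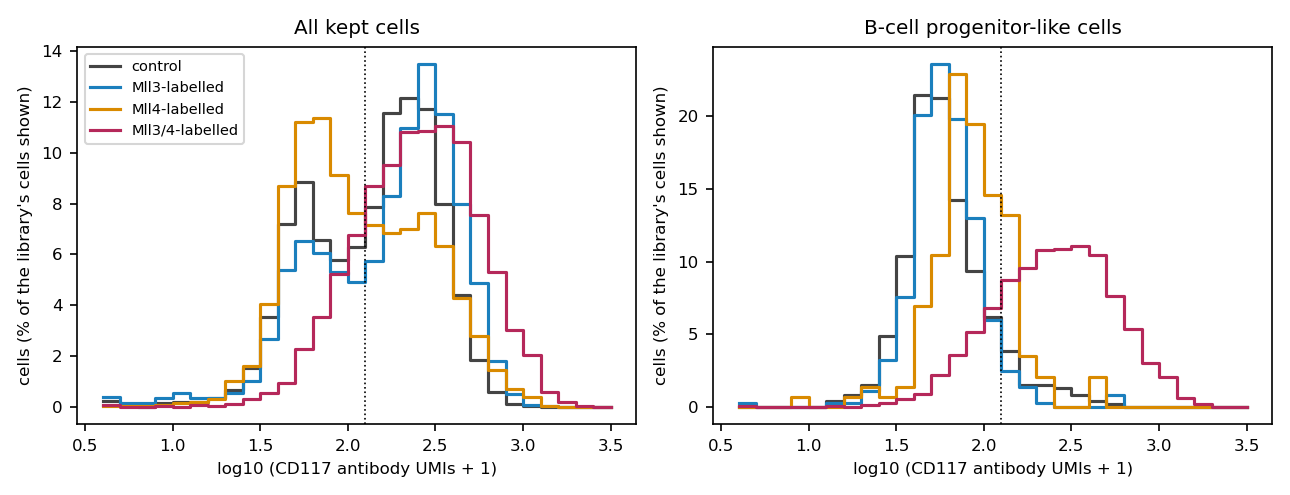
Percent of cells (vertical axis) by log10 of CD117 antibody UMIs plus 1 (horizontal axis), for all kept cells on the left and for B-cell progenitor-like cells on the right; lines are libraries and the dotted line marks 124.3 UMIs. B-cell progenitor-like cells lie mostly left of the line in 3 libraries and mostly right of it, 80.3% of them, in the Mll3/4-labelled library.

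Cells were grouped by clustering without Kit and named from marker genes that did not include Kit, which gave 28 units of a named class in a library with at least 50 cells, over 11 classes. The 10 leading genes of clusters 2, 9, 12 and 22 to 25 held none of the markers of their class, and clusters 13, 14 and 20 stayed unnamed. In control, Kit ran from 316 CPM (interval 284 to 349) in basophil/mast-like cells to 220 (212 to 228) in stem cell and multipotent progenitor-like (HSC/MPP-like) cells and 196 (149 to 253) in the 50 T/NK/innate lymphoid-like cells. Megakaryocyte-like cells had 120 CPM, granulocyte progenitor-like cells 108, monocyte/macrophage progenitor-like cells 96.7, erythroid progenitor-like cells 91.0, B-cell progenitor-like cells 84.9 and neutrophil-like cells 33.5. HSC/MPP-like and T/NK/innate lymphoid-like cells overlapped in their intervals, and so did each neighbouring pair from megakaryocyte-like to B-cell progenitor-like cells, while basophil/mast-like cells at the top and neutrophil-like cells at the bottom stood clear of their neighbours.

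The protein gave another order. Among the named classes of control, median CD117 was 271 UMIs in HSC/MPP-like cells, 239 in granulocyte progenitor-like and 229 in monocyte/macrophage progenitor-like cells. It was 187 in erythroid progenitor-like, 183 in basophil/mast-like and 174 in megakaryocyte-like cells. It then dropped to 56 in neutrophil-like, 55 in B-cell progenitor-like and 39 in T/NK/innate lymphoid-like cells. The quartiles of the 6 upper classes overlapped. No quartile range of the 3 lower classes reached those of the 6 upper ones, since the highest upper quartile below was 78.5 UMIs and the lowest lower quartile above was 120. The unnamed cluster 13, with 682 control cells, had a median CD117 of 287.5 UMIs, above each named class, and Kit at 169 CPM. The unnamed cluster 14, with 439 control cells, was at 54 UMIs and 33.1 CPM.

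Classes close in 1 measure of the transcript could lie apart in another. Granulocyte progenitor-like and B-cell progenitor-like cells of control had a Kit UMI in 16.7% (interval 13.2% to 20.7%) and 15.9% (12.6% to 19.6%) of cells thinned to 2000 UMIs, and 2.28 and 0.573 Kit UMIs per cell, and their median CD117 was 239 and 55. Their unthinned shares were 78.9% and 35.7%, at median depths of 20612.5 and 4389 UMIs. Mature B-like cells, which should lack Kit, had a Kit UMI in 20.4% (13.4% to 29.0%) of thinned cells in the Mll3-labelled library, and 30.3% unthinned, at a median depth of 2550 UMIs. The deeper neutrophil-like cells of control, at 13658 UMIs, were at 6.08% thinned and 35.6% unthinned. Shares in shallow B-cell progenitor-like cells are therefore not read as expression. Counts were not corrected for free RNA, and its part was not tested.

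**Figure D2:**
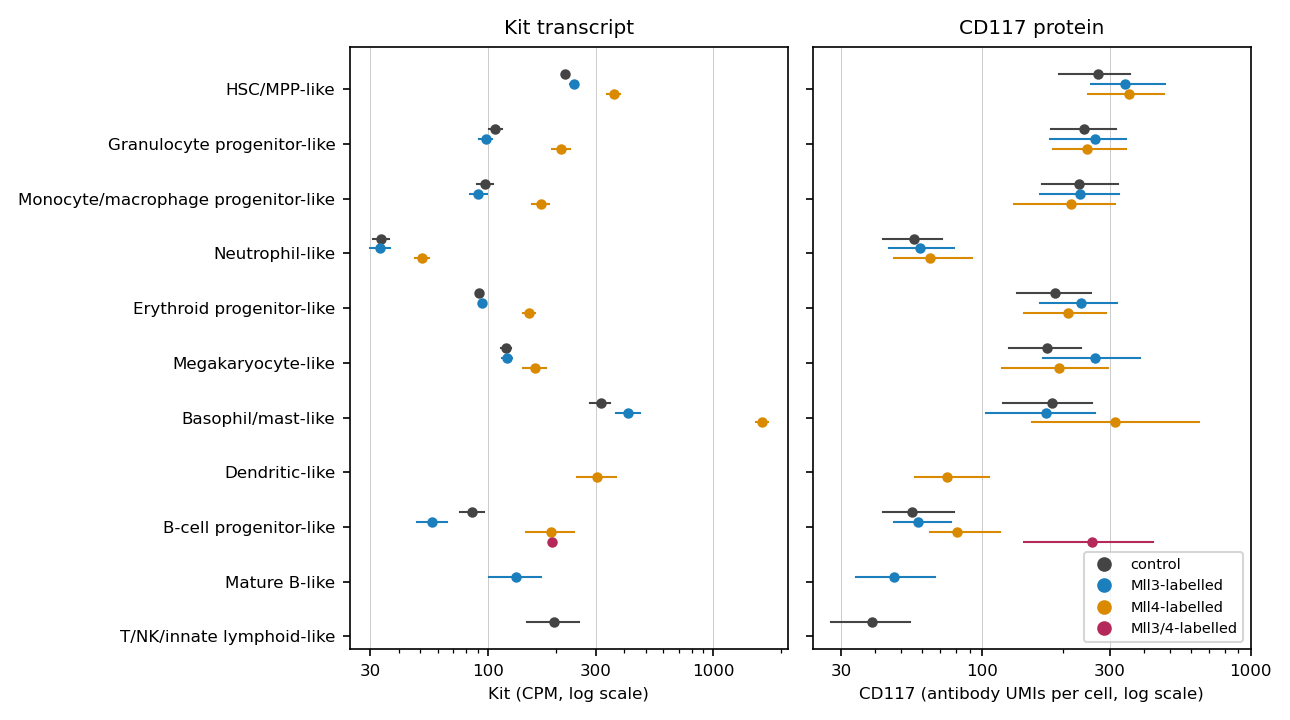
Kit in CPM with counting intervals (left) and median CD117 antibody UMIs per cell with quartiles (right), both on log axes, for each class (rows) and library (colours) with at least 50 cells. Basophil/mast-like cells of the Mll4-labelled library stand highest in Kit, at 1642.5 CPM, and neutrophil-like, B-cell progenitor-like, mature B-like, dendritic-like and T/NK/innate lymphoid-like cells stand low in CD117 except for B-cell progenitor-like cells of the Mll3/4-labelled library.

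Over the 28 units, log2 Kit CPM and log2 CD117 per 1000 surface antibody UMIs had a Pearson correlation of 0.44 and a Spearman correlation of 0.41. Units of a library share depth and staining, so these are descriptions. Within libraries the Pearson value was 0.48 in control, 0.59 in the Mll3-labelled and 0.44 in the Mll4-labelled library, with 9 units each. Without the Mll4-labelled library it was 0.56 over 19 units.

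CPM divides by all RNA of a cell, and the classes differed widely in that total. Erythroid progenitor-like cells of control had a median of 44159 UMIs and 3.83 Kit UMIs per cell, the most of the 9 control classes, although they were at 91.0 CPM. HSC/MPP-like cells had 3.28 Kit UMIs per cell, basophil/mast-like 3.21, granulocyte progenitor-like 2.28, monocyte/macrophage progenitor-like 2.24, megakaryocyte-like 2.16, T/NK/innate lymphoid-like 1.18, B-cell progenitor-like 0.573 and neutrophil-like 0.456. On this scale, which was added after the values were seen, the 6 classes high in CD117 were also the 6 highest in Kit.

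With Kit UMIs per cell in place of CPM, the Pearson correlation with the CD117 share was 0.87 over 28 units, 0.95 in control, 0.96 in the Mll3-labelled and 0.79 in the Mll4-labelled library. With the CD117 count per cell it was 0.82. Without the Mll4-labelled library these values were 0.92 and 0.87 over 19 units. The units fell into a low and a high set. The 9 low units had 33.8 to 58.4 CD117 UMIs per 1000 and the 19 high units 147 to 439, with none between. Within the 19 high units, the correlation of the CD117 share was 0.42 with Kit UMIs per cell and 0.18 with Kit CPM, and within the 9 low units it was −0.03 and 0.18. Without the Mll4-labelled library the values were 0.23 and 0.15 within 13 high units, and 0.61 and 0.86 within 6 low units, so those of the low set rest on which libraries enter. Over all units Kit per cell did not part the 2 sets fully, since T/NK/innate lymphoid-like cells of control, a low unit at 1.18 Kit UMIs per cell, lay above monocyte/macrophage progenitor-like (1.16) and megakaryocyte-like (1.06) cells of the Mll4-labelled library.

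**Figure D3:**
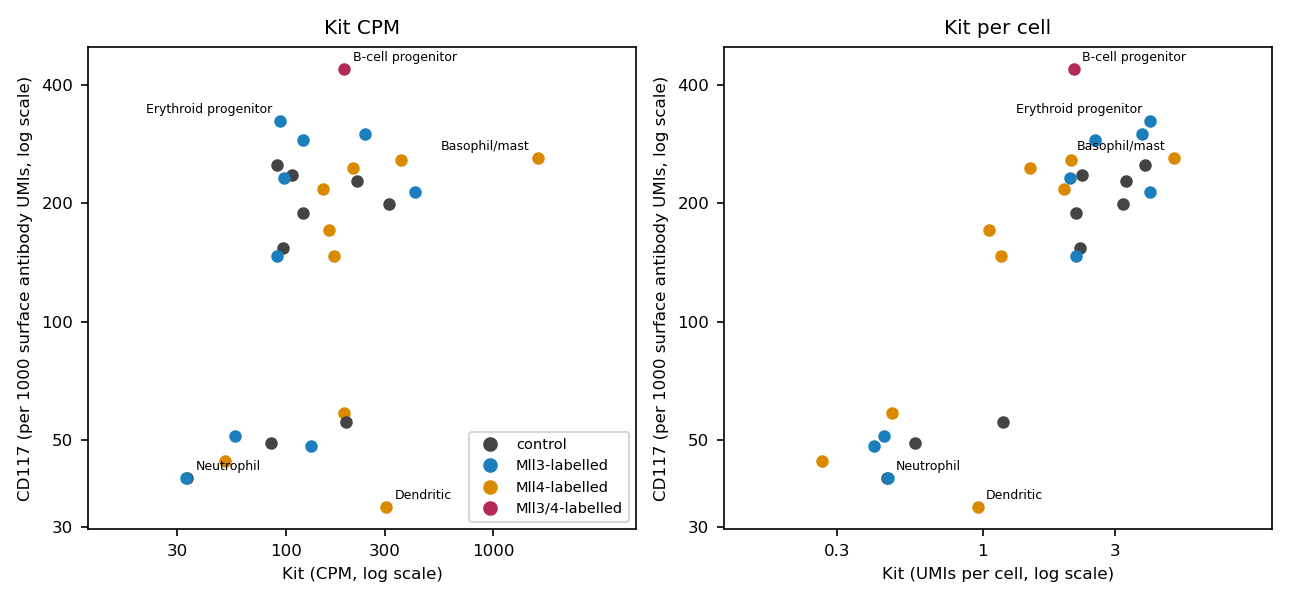
CD117 per 1000 surface antibody UMIs (vertical, log axis) against Kit CPM (left) and Kit UMIs per cell (right, both log axes); each point is 1 of 28 units, coloured by library, with some named. The 9 units below 58.5 per 1000 spread over Kit CPM on the left, up to 305 CPM in dendritic-like cells. On the right they reach up to 1.18 Kit UMIs per cell, past high units at 1.06 and 1.16.

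The units in which transcript CPM was high and protein low were small or shallow. Dendritic-like cells of the Mll4-labelled library (103 cells) had 305 CPM of Kit, a median CD117 of 74 UMIs and a median depth of 2886 UMIs. B-cell progenitor-like cells of that library (144 cells) had 190 CPM, 81 CD117 UMIs and a median depth of 2241 UMIs. T/NK/innate lymphoid-like cells of control had 196 CPM and a median CD117 of 39 at a depth of 4898 UMIs.

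The genes whose log2 CPM followed Kit most closely over the 28 units, among 6008 other genes with a mean of at least 20 CPM, were Kdm4a (Pearson 0.87), P2rx4 (0.86), Ivns1abp, Itm2c and Slc25a36 (0.85 each). Kdm4a encodes a histone demethylase, P2rx4 an ATP-gated channel and Slc25a36 a mitochondrial carrier. For the CD117 share they were Abhd14a (0.86), Ydjc, Ube2q2, Gstm5 and Klf9 (0.85 each), and Kit was in place 2005 of 6009 at 0.44. Without the Mll4-labelled library the 5 genes like Kit had Pearson values of 0.77 to 0.86 and those like the CD117 share 0.83 to 0.94, and Kit was in place 1415 for the share at 0.56. The order depends on the set of units, since Kdm4a was then in place 39 and Abhd14a in place 26. Among the other surface antibodies, the count per cell of CD41, a platelet integrin, followed that of CD117 most closely (0.56), before CD34 (0.53) and CD150 (0.23), while B220 (−0.62), CD127 (−0.39) and CD11b (−0.29) were lowest. Without the Mll4-labelled library CD41 was at 0.54, CD34 at 0.43, CD150 at 0.26, B220 at −0.68, CD127 at −0.36 and CD11b at −0.15.

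Subsets defined by surface antibodies were read on both Kit scales. Among control cells high in CD117, those also above 32.5 UMIs of Sca1, the marker of the stem and multipotent fraction, had 221 CPM of Kit and those low for Sca1 had 115. Median CD117 was 256 and 235 UMIs, and Kit UMIs per cell were 3.29 and 3.28, at median depths of 13302 and 21449 UMIs. The Kit CPM values were 215 and 112 in the Mll3-labelled, 418 and 222 in the Mll4-labelled and 217 and 195 in the Mll3/4-labelled library. The subset high for Sca1 was higher in Kit CPM in all 4 libraries. In the Mll3/4-labelled library it held 2629 cells, while 12 kept cells were HSC/MPP-like and 6830 of 6917 B-cell progenitor-like. It is therefore not a stem and multipotent fraction there. In Kit UMIs per cell the subset high for Sca1 was at 3.68 against 3.44 in the Mll3-labelled and 2.36 against 1.80 in the Mll4-labelled library. It was at 2.59 against 2.23 in the Mll3/4-labelled library, so it lay above in these 3 and level in control.

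From cell to cell, Kit increased over quintiles of the CD117 count, which are 5 groups of equal size, in each library. In control the 5 quintiles, from low to high CD117, had 39.9, 57.8, 99.1, 124 and 152 CPM of Kit. The top quintile was 3.80-fold (interval 3.50 to 4.13) above the bottom in control, 4.25-fold in the Mll3-labelled, 6.15-fold in the Mll4-labelled and 2.37-fold in the Mll3/4-labelled library, and each of the 4 steps was upward in each library. Cells with a Kit UMI after thinning went from 8.30% to 27.3% in control. By CD117 per 1000 surface antibody UMIs the folds were 2.76, 3.23, 4.83 and 1.73. On that scale 3, 2, 3 and 4 of the 4 steps were upward in the same order of libraries. In control Kit by share was at 139 CPM in the fourth quintile and 106 in the top one.

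Read the other way, control cells with 0, 1, and 2 or more Kit UMIs after thinning had median CD117 counts of 148, 203 and 235. The medians lay closer in 3 of the 4 control classes read this way. In HSC/MPP-like cells they were 269.5, 272 and 274, in erythroid progenitor-like cells 187, 189 and 197, and in neutrophil-like cells with 0 and 1 Kit UMI they were 56 and 53. In B-cell progenitor-like cells of control they were 54, 66.5 and 135.5, the last over 16 cells. In HSC/MPP-like cells of the Mll3-labelled library the medians were 342, 317 and 391.5, and in those of the Mll4-labelled library 359.5, 341 and 399, so the cells with 2 or more Kit UMIs had the highest median there.

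Within classes the 2 CD117 scales did not give the same relation. In erythroid progenitor-like cells of control, Kit in the top quintile by CD117 count was 1.86-fold (1.71 to 2.03) that of the bottom quintile, but by CD117 share it was 0.684-fold (0.632 to 0.741). Median depth went from 34845 to 52556 UMIs between the bottom and top quintiles by count. In the Mll3-labelled library the values were 2.003 by count and 0.753 by share, and in the Mll4-labelled library 2.18 and 0.949, the latter with an interval (0.768 to 1.18) that holds 1. In Kit CPM the erythroid relation is thus opposite on the 2 CD117 scales in control and Mll3-labelled cells. By share, median depth went from 22197 to 57941.5 UMIs in control and from 23654.5 to 57836 in the Mll3-labelled library. Kit UMIs per cell went up by share, from 3.04 to 4.38 and from 3.22 to 4.96. Cells with a Kit UMI after thinning went down, from 20.4% to 13.7% and from 23.5% to 13.2%. The part of depth was not tested.

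HSC/MPP-like cells of control were higher in Kit CPM in the top quintile on both scales, 1.36-fold (1.20 to 1.54) by count and 1.81-fold (1.60 to 2.04) by share. By count only 2 of 4 steps were upward, and by share all 4 were. The folds were 1.13 (0.995 to 1.29) by count and 1.44 by share in the Mll3-labelled library, where the interval by count holds 1, and 1.35 (1.09 to 1.68) and 1.54 in the Mll4-labelled library. After thinning, cells with a Kit UMI differed between top and bottom quintiles by count by 5.67, −0.74 and −4.79 percentage points. These values are for control, Mll3- and Mll4-labelled HSC/MPP-like cells, and by share they were 15.1, 3.68 and 13.5. Neutrophil-like cells of control were at 1.11-fold (0.854 to 1.44) by count and 1.001 by share, so no difference was detectable there at this depth, but by count they were at 1.56-fold (1.07 to 2.32) in the Mll3-labelled and 1.29-fold (1.01 to 1.64) in the Mll4-labelled library. In B-cell progenitor-like cells of control the top quintile by count was at 3.97-fold (2.61 to 6.25), with 170 against 42.7 CPM. It was at 1.53-fold (0.949 to 2.50) in the Mll3-labelled library, an interval that holds 1, and 3.204-fold (1.31 to 8.92) in the Mll4-labelled library. The difference after thinning by count in this class was 20.5, −3.37 and 6.30 percentage points in control, Mll3- and Mll4-labelled cells.

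**Figure D4:**
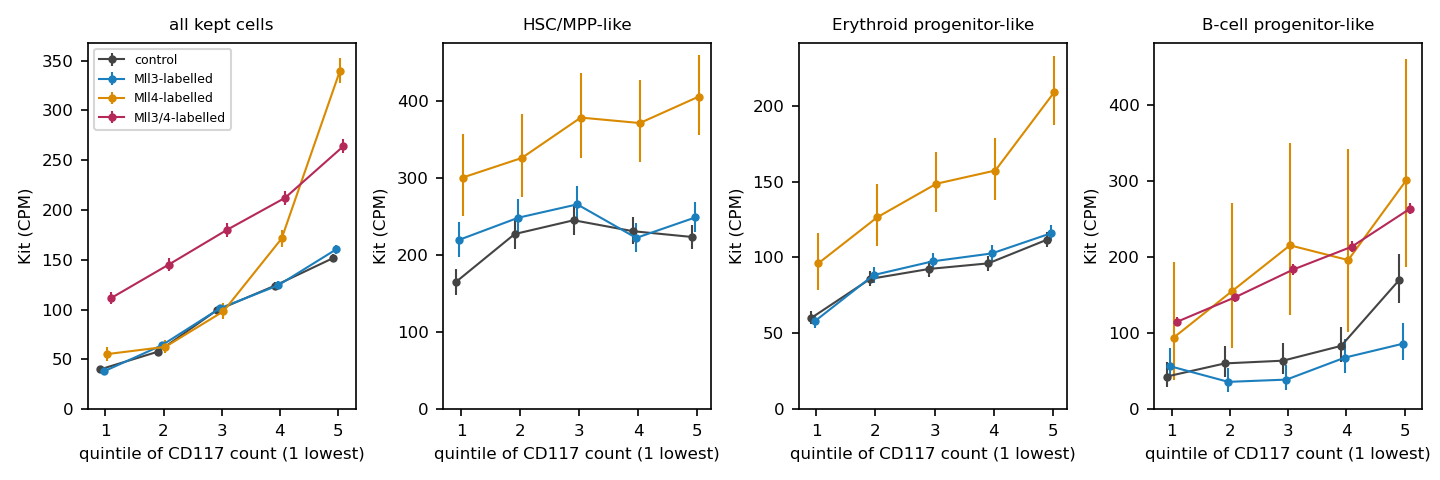
Kit in CPM (vertical axes from 0, with counting intervals) by quintile of the CD117 count within each library (horizontal axis, 1 lowest), for all kept cells and for 3 classes; lines are libraries. Over all kept cells each library climbs at every step, and HSC/MPP-like cells of control go from 165 to 223 CPM with their highest value in the middle group.

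Other genes separated the quintiles by CD117 share far more than Kit. Between the bottom and top quintiles by CD117 share in control, the largest log2 ratios with a pseudocount of 1 CPM were at Ifitm1 (−5.11), Vim (−4.63) and Serpina3g (−4.38) in erythroid progenitor-like cells, at Mmp8 (−6.54), Mmp9 (−4.16) and Retnlg (−3.57) in neutrophil-like cells, and at Ms4a2 (−4.69), Dntt (−3.68) and Ighm (−3.41) in HSC/MPP-like cells. All 9 were lower where the CD117 share was higher. From the bottom to the top quintile by share, the median CD117 count went from 140 to 208 UMIs in erythroid progenitor-like cells. It went from 42 to 70 in neutrophil-like and from 177 to 310 in HSC/MPP-like cells. In erythroid progenitor-like cells the middle quintile by share was also at 208, so share and count differ there. Mmp8, Mmp9 and Retnlg belong to late neutrophils, Ms4a2 to mast cells and basophils, and Dntt and Ighm to lymphoid cells. In HSC/MPP-like cells Kit was in place 37 of 6007 genes by increase, at 0.85, and the top of that order, looked up after the values were seen, was Prkg1 (1.83) and Apoe (1.31). In erythroid progenitor-like cells Kit was at −0.54, and in neutrophil-like cells at 0.00.

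Mll3-labelled cells were compared with control within 8 classes that had 50 cells in both. Kit was higher in 2 classes, lower in 2, and had an interval that holds 0 in 4. In HSC/MPP-like cells it was 241 against 220 CPM (log2 0.13, interval 0.05 to 0.21), and in basophil/mast-like cells 418 against 316 CPM (0.41, 0.17 to 0.64). It was lower in B-cell progenitor-like cells, at 56.6 against 84.9 CPM (−0.58, −0.87 to −0.30), and in granulocyte progenitor-like cells (−0.14, −0.27 to −0.01). These are small ratios: of all genes tested in HSC/MPP-like cells Kit was at the 82.2nd percentile.

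CD117 in the Mll3-labelled library was higher than control on both scales in 4 classes. The log2 ratio of the share was 0.61 in megakaryocyte-like, 0.40 in HSC/MPP-like, 0.37 in erythroid progenitor-like and 0.10 in basophil/mast-like cells, and that of the count per cell 0.63, 0.35, 0.32 and 0.12. Median CD117 was 264 against 174 UMIs in megakaryocyte-like cells, 339.5 against 271 in HSC/MPP-like cells and 234 against 187 in erythroid progenitor-like cells. In basophil/mast-like cells the median was lower, 173 against 183 UMIs, and 66.7% against 71.8% of cells lay above 124.3, while the 90th percentile was 457.2 against 321.2. Kit was at 121 against 120 CPM in megakaryocyte-like cells (log2 0.01, −0.09 to 0.11) and at 94.0 against 91.0 in erythroid progenitor-like cells (0.05, −0.0011 to 0.098). On CPM, protein was thus higher in both without a transcript ratio whose interval excludes 0. In Kit UMIs per cell the ratios were 0.23 (0.13 to 0.33) and 0.07 (0.02 to 0.12), at mean depths that were 0.22 and 0.02 higher on the log2 scale. In neutrophil-like cells, which carry little CD117, the share was at 0.00 (−0.01 to 0.02) and the count per cell at 0.14. In B-cell, granulocyte and monocyte/macrophage progenitor-like cells the 2 scales had opposite signs. A difference in staining between libraries cannot be told apart from one between groups.

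In the Mll4-labelled library Kit CPM was above control in 8 of 8 classes, and Kit UMIs per cell were below control in 7 of 8. In HSC/MPP-like cells it was 360 against 220 CPM (log2 0.71, 0.60 to 0.82), in erythroid progenitor-like cells 152 against 91.0, in granulocyte progenitor-like cells 210 against 108 and in neutrophil-like cells 51.0 against 33.5. The ratios ran from 0.42 in megakaryocyte-like to 2.38 in basophil/mast-like cells. With TMM scaling (trimmed mean of M-values), which lowered the ratios by 0.08 to 0.31, they ran from 0.21 to 2.08. Most neutrophil-like cells were in cluster 11 in control and in clusters 12 and 15 in the Mll4-labelled library. Depth moved with this result, since the cells of every class had fewer UMIs in that library, 5216 against 13014 in the median HSC/MPP-like cell, and its part was not tested. Kit UMIs per cell were 2.08 against 3.28 in HSC/MPP-like, 1.96 against 3.83 in erythroid progenitor-like and 1.06 against 2.16 in megakaryocyte-like cells, and higher than control only in basophil/mast-like cells. Their log2 ratios ran from −1.03 to 0.60 over the 8 classes, where those of mean depth ran from −1.78 to −1.37.

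CD117 differed less evenly over the classes. Its count per cell was higher than control in 7 of 8 classes and its share in 5 of 8. HSC/MPP-like cells had a median of 354 against 271 UMIs, a log2 ratio of 0.37 by count and 0.18 by share. Erythroid progenitor-like cells were at 0.15 by count and −0.21 by share, megakaryocyte-like cells at 0.35 and −0.15, and monocyte/macrophage progenitor-like cells at −0.10 and −0.07. The direction of the share depends on the cell grouping in 4 classes. With finer clusters it was −0.14 in HSC/MPP-like cells. Without doublet removal, with finer clusters or with another random seed it was 0.20 to 0.23 in monocyte/macrophage progenitor-like and −0.26 to −0.24 in granulocyte progenitor-like cells, and without doublet removal it was 0.29 in megakaryocyte-like cells. The share was above control in 4 to 6 of 8 classes over these settings.

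Basophil/mast-like cells held the highest Kit of any unit. Kit was at 316 CPM (375 UMIs, 117 cells) in control, 418 CPM (252 UMIs, 63 cells) in the Mll3-labelled and 1642.5 CPM (1130 UMIs, 233 cells) in the Mll4-labelled library, 5.20-fold above control. Kit UMIs per cell were 3.21, 4.00 and 4.85, although the Mll4-labelled cells had a median of 2657 UMIs against 9544 in control. Median CD117 was 183, 173 and 314 UMIs, and the count per cell was 2.07-fold that of control in the Mll4-labelled library. Its upper quartile was 640 UMIs against 257. In this class both levels were higher than control, at the 98.8th percentile of genes for the transcript.

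Mast cell genes differed with it. The following were picked after their values were seen. Cma1, a chymase gene, was at 148 CPM in control and 3215 in the Mll4-labelled library, Mcpt4, another mast cell protease, at 11.8 and 711, and Tpsb2, a tryptase, at 23.6 and 241. Cells with a Cma1 UMI made up 10.3% and 44.2%. Cpa3, shared by mast cells and basophils, was at 1332 and 8091 CPM, Mcpt8, a basophil protease, at 713 and 2384, and Prss34, another, at 149 and 131. Cells with an Mcpt8 UMI made up 41.0% and 42.1%. More mast cells in the class and more of these transcripts per cell are not told apart here. The part of either in the Kit ratio was not tested.

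Nearly all kept cells of the Mll3/4-labelled library, 6830 of 6917, were B-cell progenitor-like, against 471 of 7146 in control, so the 2 libraries can be compared within this class only. They lay in clusters 22 to 25, and those of control in clusters 0 and 17. Kit was at 84.9 CPM in control, 56.6 in the Mll3-labelled, 190 in the Mll4-labelled and 191.8 in the Mll3/4-labelled library, where the log2 ratio to control was 1.18 (1.003 to 1.36). With TMM scaling it was 1.30. Kit was past 2-fold there, and of 13456 genes tested in this class 9.45% were past 2-fold higher.

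The protein was higher in the Mll3/4-labelled cells than in the other 3 libraries. Median CD117 was 55 UMIs in control, 58 in the Mll3-labelled, 81 in the Mll4-labelled and 256 in the Mll3/4-labelled library. The log2 ratio of the last to control was 3.16 by share and 2.17 by count per cell, beside 1.89 (1.72 to 2.07) for Kit UMIs per cell. CD117 per hashtag UMI was 0.181 against 0.0545 in control. Cells above 124.3 UMIs made up 9.55%, 4.88%, 20.8% and 80.3%. The lower quartile of the Mll3/4-labelled cells, 144 UMIs, lay above the upper quartile of the other 3 libraries, the highest of which was 117.25. The Mll4-labelled cells had nearly the same Kit CPM as the Mll3/4-labelled ones and 0.472 against 2.13 Kit UMIs per cell.

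Depth and other antibodies differed as well. Median depth was 4389 UMIs in control, against 9936 in Mll3/4-labelled cells. Median B220, the CD45 form of B cells, was 193 and 13 antibody UMIs, and CD127, the interleukin-7 receptor, 32 and 45. B220 is part of the surface antibody total, and with B220 left out of that total the log2 ratio of the CD117 share was 2.999. CD48 is a larger part of it. In the middle quintile by CD117 count, median CD48 was 1015 UMIs in control and 25 in Mll3/4-labelled cells. The median surface antibody total of the class was 1416 and 564.5 UMIs. The share ratio was not computed with CD48 left out, so its size also depends on CD48.

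The 4 clusters of Mll3/4-labelled B-cell progenitor-like cells agreed in being high. Kit was at 225, 186, 158 and 167 CPM in clusters 22, 23, 24 and 25, and median CD117 at 230, 237, 377 and 328.5 UMIs. The cluster with the most Kit CPM had the least CD117, while Kit UMIs per cell were 1.97, 2.13, 2.50 and 2.28 at median depths of 8085, 11065, 14679 and 13022 UMIs. In control, cluster 0 had 129 CPM and a median CD117 of 54.5 at a depth of 3415.5 UMIs, and cluster 17 had 55.3 CPM and 56.5 at 11115.5 UMIs.

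Within these cells transcript and protein increased together. The quintiles by CD117 count had 115, 147, 184, 213 and 263 CPM of Kit, a top to bottom fold of 2.29 (2.16 to 2.43), and by share the fold was 1.66 (1.58 to 1.75). Median CD117 in cells with 0, 1, and 2 or more Kit UMIs after thinning was 232, 308 and 377. Other antibodies increased over the same quintiles: median hashtag counts went from 1011.5 to 2626, B220 from 11 to 17, CD127 from 30 to 70, and median depth from 8374.5 to 12379.5 UMIs. Their part in the relation by count was not tested. By share Kit was in place 15 of 9988 genes by increase (log2 0.73). In this class, added after the values were seen, Ly6a (−3.93), Cd48 (−3.78) and Retnlg (−3.34) were lowest. Ly6a and Cd48 encode Sca1 and CD48, which are part of the surface antibody total. High counts of either lower the CD117 share, so the place of these genes is not independent of the scale.

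The KIT pathway was read from a list of 77 genes by role, each called at a 2-fold ratio of CPM with a pseudocount of 1 CPM. Kitl, which encodes the ligand, had 8, 10, 8 and 90 UMIs over the control, Mll3-, Mll4- and Mll3/4-labelled libraries, or 0.052, 0.074, 0.244 and 1.16 CPM. In control B-cell progenitor-like cells it had 0 UMIs (interval 0 to 1.16 CPM). In the Mll3/4-labelled ones it had 89 UMIs, or 1.17 CPM (0.942 to 1.44). The intervals overlap, so a difference between these was not detectable at the depth of the control class.

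In the Mll3-labelled library 0 of 75 tested pathway genes were past 2-fold higher and 1 lower, where 0.199% of all genes tested were higher and 0.467% lower. The 1 was Socs1, an inhibitor of cytokine signalling, at 2.54 against 6.33 CPM (log2 −1.05). The pathway median was −0.15 and that of all genes −0.04. Within HSC/MPP-like cells 0 of 72 were higher and 1 lower, beside 0.451% and 0.884% of all genes, and that was Dok2, an adaptor that dampens kinase signals, at 14.4 against 29.9 CPM.

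In the Mll4-labelled library 7 of 75 were higher and 2 lower, against 5.74% and 2.91% of all genes. Among the higher ones were the kinases Fes (138 against 38.9 CPM, log2 1.80) and Lyn (115 against 38.3, 1.56), the exchange factor Vav1 (1.36) and the factor Mitf (6.28 against 1.88, 1.34). Zfpm1, the GATA1 partner, was lower (50.5 against 123, −1.27). Of 40 adaptors and effectors 5 were higher and 0 lower. Neutrophil-like cells made up 2666 of 5350 cells in this library and 1343 of 7146 in control, and their part was not tested. TMM scaling shifted these ratios by 0.10. Within HSC/MPP-like cells 1 of 72 was higher and 1 lower (3.53% and 3.09% of all genes), Grb10 (1.24) and Dok2 (−1.99), which both encode dampening adaptors.

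Within Mll4-labelled basophil/mast-like cells 8 of 65 pathway genes were higher and 1 lower, beside 10.9% and 4.95% of all genes. By the same order of size, which was applied within classes after the values were seen, these were Mitf (186 against 11.8 CPM, log2 3.87), the phosphatase gene Inpp5d (1.98), the Ras inhibitor gene Spred1 (1.81), Lyn (1.64) and Plcg1, a phospholipase gene (1.52), and Zfpm1 was lower (−1.68). TMM scaling shifted them by 0.30. Mitf encodes a factor that mast cells need and that acts on Kit.

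In the Mll3/4-labelled library 13 of 76 tested pathway genes were higher and 23 lower, against 12% and 11.7% of all genes. The lower ones were led by factors that act on the Kit gene, of which 1 of 16 was higher and 8 were lower. Lmo2 was at 5.90 against 336 CPM (log2 −5.61), Gata1 at 0.270 against 49.3 (−5.31), Tal1 at 0.785 against 68.5 (−5.28), Gata2 at 1.27 against 60.1 (−4.75), Lyl1 at 1.82 against 58.8 (−4.41) and Zfpm1 at 5.56 against 123 (−4.24). These encode the GATA factors and the proteins that join them on DNA in stem, erythroid and mast cells. Since the library is nearly all B-cell progenitor-like, makeup and level cannot be told apart here.

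Within B-cell progenitor-like cells, 7 of 71 pathway genes were higher and 18 lower, beside 9.45% and 7.39% of all genes. Kitl is 1 of the 7, at 0 UMIs in control, so its call rests on the pseudocount. Of the factors, 1 of 13 tested was higher and 5 were lower, while Kit itself was higher. Lyl1 was at 0.685 against 64.4 CPM (log2 −5.28), Lmo2 at 1.62 against 63.5 (−4.62), Zfpm1 at 4.39 against 123 (−4.52) and Cbfa2t3, a corepressor of the same complex, at 4.41 against 79.5 (−3.89). The kinase gene Btk was at 4.06 against 78.9 (−3.98). Grb10 had 1464 UMIs against 1 in control, a log2 ratio without pseudocount of 5.94 (3.46 to 11.24). The median of the 71 was −0.15 and that of all genes 0.02. The control cells of this class had a median depth of 4389 UMIs. Counts were not corrected for free RNA, and its part in these ratios was not tested.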

How the data were processed

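The deposited matrices hold UMI counts of genes and antibodies, which the authors made with Cell Ranger 6.1.2, per the file headers, on mm10, per the submitters' processing notes. No normalization is applied in them. Barcodes with at least 500 genes, 1000 gene UMIs and at most 10% mitochondrial UMIs were kept. Doublets were scored with Scrublet in scanpy 1.11.5 (expected rate 0.06), and the top 0.8% per 1000 barcodes were removed. Kept cells of all libraries were clustered on 2000 variable genes, with Kit, Xist, and Y-linked and mitochondrial genes left out (30 principal components, 15 neighbours, Leiden resolution 1, seed 0). Clusters were named from markers where at least 3 were detected. A cluster stayed unnamed where its 10 leading genes held markers of another class, and at least as many as of its own. It also stayed unnamed where it was shallow beside its libraries and those genes held no marker of its own class. Counts were summed per library or class and scaled to CPM. CD117 was divided by the sum of the 13 surface antibodies, without hashtags. Genes were called past 2-fold with at least 20 counts in either library. Thinning drew 2000 UMIs a cell. Of 32285 gene identifiers, 32235 were in GENCODE M21.

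Named genes were the 5 most like Kit or CD117 over units, the 3 that differed most between CD117 quintiles in the largest classes (at least 100 counts), and up to 6 pathway genes a library by size of ratio. Not every gene that this rule names is reported here. Members and lists were chosen with earlier results of these data known. Scripts that call genes were tested on simulated data. Numbers of UMIs were 36413830 to 174795636 over the deposited barcodes of a library. The alternatives tried were other scalings, thresholds, cell filters and clusterings.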

Additional observations from a re-analysis of the deposited data

Results flagged for a closer look

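Log2 ratios to control went opposite ways in different classes of the same library, with counting intervals that exclude 0. These differences between classes were not tested. In the Mll3-labelled library Kit was at 0.41 in basophil/mast-like and 0.13 in HSC/MPP-like cells, and at −0.58 in B-cell progenitor-like and −0.14 in granulocyte progenitor-like cells. The CD117 share in that library was at 0.61 in megakaryocyte-like, 0.40 in HSC/MPP-like, 0.37 in erythroid progenitor-like, 0.10 in basophil/mast-like and 0.064 in B-cell progenitor-like cells, and at −0.020 in granulocyte progenitor-like and −0.071 in monocyte/macrophage progenitor-like cells. In the Mll4-labelled library the CD117 share was at 0.39 in basophil/mast-like, 0.25 in B-cell progenitor-like, 0.18 in HSC/MPP-like, 0.15 in neutrophil-like and 0.064 in granulocyte progenitor-like cells, and at −0.21 in erythroid progenitor-like, −0.15 in megakaryocyte-like and −0.068 in monocyte/macrophage progenitor-like cells.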

How the results depend on the processing

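No paired analysis was possible because each group has 1 library. Kit log2 ratios over all kept cells kept their direction under the alternatives that divide by total UMIs and not per cell. As Kit UMIs per cell, added after the values were seen, they were 0.16, −1.14 and −0.078 in the Mll3-, Mll4- and Mll3/4-labelled libraries, where mean depth differed from control by 0.11, −1.81 and −0.94 on the log2 scale. For the Mll3-, Mll4- and Mll3/4-labelled libraries they were 0.092, 0.57 and 0.81 with TMM scaling, and 0.12, 0.87 and 0.78 as the mean of each cell's share. The CD117 share ratios kept their direction too but moved by more than counting error. In the same order of libraries they were 0.40, −0.52 and 1.51 without doublet removal, 0.37, −0.44 and 1.47 over all deposited barcodes, 0.33, −0.068 and 0.84 as the raw count per cell, 0.31, −0.29 and 0.044 per hashtag UMI, 0.40, −0.48 and 1.56 with B220 left out of the denominator, and 0.42, −1.16 and 1.55 as the median of each cell's share.

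The correlation of Kit CPM with the CD117 share over units was 0.56 at Leiden resolution 0.5 (20 units), 0.87 with Kit UMIs per cell and 0.82 with Kit and CD117 per cell, and 0.40 to 0.56 with each library left out in turn. The difference in cells with a Kit UMI between the top and bottom CD117 quintiles was 19.0 percentage points in control, 24.2 in the Mll3-labelled and 21.9 in the Mll3/4-labelled library with quintiles of the raw count, against 14.9, 18.5 and 13.4. With thinning to 1000 UMIs, which leaves fewer UMIs to detect, it was 9.64 in the Mll3-labelled, 22.0 in the Mll4-labelled and 7.53 in the Mll3/4-labelled library. At 1.5-fold, 3 pathway genes were lower in the Mll3-labelled library, and 21 were higher and 7 lower in the Mll4-labelled library.

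Within classes, 7 of 85 alternative values of the Kit ratio changed direction from a ratio whose interval excludes 0, and 15 of 85 of the CD117 share did. The 7 are Kit UMIs per cell in the Mll4-labelled library, at −0.28 in B-cell progenitor-like, −0.97 in erythroid progenitor-like, −0.63 in granulocyte progenitor-like, −0.66 in HSC/MPP-like, −1.03 in megakaryocyte-like, −0.95 in monocyte/macrophage progenitor-like and −0.77 in neutrophil-like cells, which leaves 1 of 8 classes above control in place of 8. In the Mll3-labelled library, the raw count gave −0.082 in B-cell progenitor-like, 0.12 in granulocyte progenitor-like and 0.023 in monocyte/macrophage progenitor-like cells, another random seed gave 0.0036 in granulocyte progenitor-like cells, and no doublet removal 0.0082 in monocyte/macrophage progenitor-like cells. In the Mll4-labelled library, the raw count gave 0.15 in erythroid progenitor-like and 0.35 in megakaryocyte-like cells. No doublet removal gave −0.26 in granulocyte progenitor-like, 0.29 in megakaryocyte-like and 0.20 in monocyte/macrophage progenitor-like cells. Leiden resolution 2 gave −0.24 in granulocyte progenitor-like, −0.14 in HSC/MPP-like and 0.22 in monocyte/macrophage progenitor-like cells, and another random seed −0.26 in granulocyte progenitor-like and 0.23 in monocyte/macrophage progenitor-like cells. Beyond the effect of depth on thinning, the cause of these moves was not tested. With 1 library a group, no spread between animals or stainings could be measured, and shallow classes limit what low Kit values show.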
